A study of Rattus norvegicus with 4 samples.

Results

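Molecular chaperones are proteins that help other proteins fold, assemble or be degraded. Here they are 82 genes of the 14217 that had a probe set of their own on the array. They were chosen by gene symbol, from the families HSP90, HSP70 with HSP110, small heat shock proteins, the mitochondrial chaperonin, J proteins, the cytosolic chaperonin TRiC/CCT, prefoldin and BAG factors, with Stip1. Each gene is given at its probe set with the highest mean over the 4 arrays. Whole rat ovaries of postnatal day 4, an age at which most follicles are primordial, were cultured for 10 days. Control ovaries received no hormone. Treated ovaries received 50 ng/mL anti-Müllerian hormone (AMH), a TGF-beta family ligand made by granulosa cells. Both groups shared the same filter culture in medium with insulin, transferrin, albumin and ascorbic acid. Each RNA sample was a pool of about 10 ovaries, and each group had 2 independent pools, 1 array per pool. The question, from the series title, is how AMH acts on transcripts of the ovary while primordial follicles are kept from becoming primary ones.

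A new protein chain meets its chaperones in relays. HSP70 proteins bind and release unfolded stretches in a cycle driven by ATP, J proteins bring the client and start the cycle, and BAG and HSP110 proteins reset it. HOP, the product of Stip1, holds HSP70 and HSP90 together so that clients such as steroid hormone receptors can be passed on. Prefoldin catches actin and tubulin chains and hands them to TRiC, a ring of different CCT subunits. HSP60 and HSP10, encoded by Hspd1 and Hspe1, form the folding chamber of mitochondria. Many of these genes are also induced by heat shock factor when misfolded protein builds up.

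Heat shock factor binds short units of GAA or TTC placed head to head. Promoter sequences of RefSeq (GRCr8) were available for 70 of the 82 genes. In the 250 bases before the start, 3 of them held 3 such units in a row (GAANNTTCNNGAA or TTCNNGAANNTTC, either strand, overlaps counted), or 4.29%, against 0.663% of all 33469 promoters. They are the promoters of Hspd1, Hspe1 and Hsph1, shown with these units in capitals because the levels of these genes are described next.
Hspd1, chr9:64084242-64084287, minus strand: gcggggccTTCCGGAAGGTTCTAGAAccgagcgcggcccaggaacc
Hspe1, chr9:64084242-64084299, plus strand: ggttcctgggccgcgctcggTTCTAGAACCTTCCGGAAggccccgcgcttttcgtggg
Hsph1, chr12:10427312-10427364, plus strand: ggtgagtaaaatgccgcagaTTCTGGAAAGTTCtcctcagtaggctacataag
The Hspd1 and Hspe1 windows overlap, read from opposite strands, since these genes lie head to head and share a promoter. The same units are thus counted for both genes in the 4.29%. Pairs of units (GAANNTTC or TTCNNGAA, those within longer runs included) occurred in 17 of the 70 promoters, or 24.3%, against 13.5% of all. Of these 17 genes, Cct5 and Hspb1 were called higher and Stip1 lower, as given below, and the other 14 were not called. Of all tested genes 23.0% were called. These are calls at the brightest probe set, and other probe sets of some of these genes, Cct5 among them, were called differently. The stress-inducible Hspa1a held neither kind of match. Dnajb1 and Bag3, also stress-inducible, held 1 pair each and no run of 3 units. A match is a stretch of letters, and binding was not measured.

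None of the 3 genes with 3 units in a row was called by limma at the probe set that stands for it, and none had an unadjusted p below 0.05. Hspd1 had intensities of 1725.2 and 1960.2 in control and 2128.6 and 2006.1 with AMH. Both AMH arrays lay above both control arrays, by a log2 difference of 0.17 ± 0.14 (standard error of the limma fit) that was not called. Hspe1 had 2120.8 and 2099.7 in control and 2134.9 and 2368.1 with AMH (0.09 ± 0.14, adjusted p = 0.673). Hsph1, a nucleotide exchange factor of HSP70, had 945.8 and 960.5 against 1071.8 and 885.1 (0.03 ± 0.15), and its groups overlapped. A dimmer probe set of Hsph1 was called lower, as given below. Throughout, a difference is AMH minus control after log2(intensity + 16). A gene was called where its adjusted p over all 18625 tested probe sets was below 0.05. Neither gene of the mitochondrial chaperonin was thus called.

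In all, 75 of the 82 genes were bright enough to be tested, and 7 were higher and 9 lower with AMH. That is near the background: 23.0% of the 10621 tested genes were called, 11.1% higher and 11.9% lower. The median difference of the 75 genes was 0.04, with 0.07 over all tested genes. Both AMH arrays lay above both control arrays in 28 of the 75 and below both in 24, and groups were separate in 64.6% of all tested genes. The counts depended on scale and on the arrays kept. With arrays scaled to the added hybridization controls, 1 gene was higher and 32 were lower, as the median of all tested probe sets then moved from 0.03 to -0.52. Of all 18625 tested probe sets, 110 were then higher and 7085 lower. Without control replicate 1, limma called 0 higher and 4 lower, with 7 and 9 at an unadjusted p under 0.05, and the spread then came from the AMH arrays alone. Cct2, Pfdn5, Pfdn6 and Stip1 were called under every alternative run, and the other 12 of the 16 calls were lost in at least 1.

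**Figure D1:**
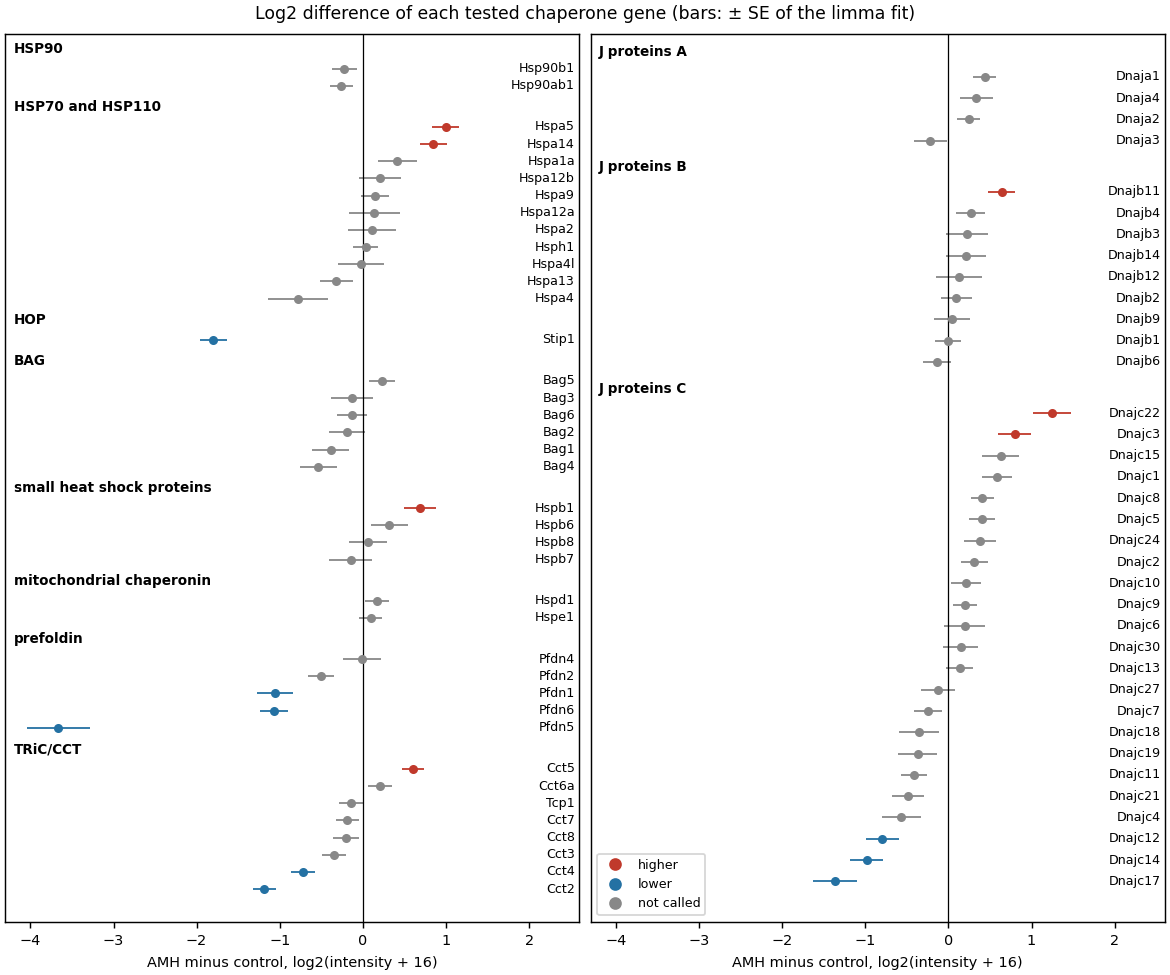
Log2 difference (AMH minus control, log2(intensity + 16)) of the 75 tested chaperone genes, by class. Points are the limma estimates and bars ± 1 SE, with red for higher, blue for lower and grey for not called. Pfdn5 lies farthest from 0 at -3.66, and the prefoldin genes all lie below 0.

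The arrays differed between groups in more than the hormone. Signal from the 3′ end over that from the 5′ end of GAPDH, a measure of shortened RNA, was 1.17 and 1.27 in control and 6.56 and 6.37 with AMH. For beta-actin the ratio was 3.17 and 4.60 against 10.7 and 14.4. Chip identifiers carry a different run string in each group, so the run and the hormone cannot be told apart. In the whole organ, fewer cells of a type and less RNA per cell cannot be told apart either. The granulosa markers Amh and Foxl2 and the oocyte markers Zp2 and Zp3 were above the filter level of 27.8 on every array. Of the 7 oocyte markers measured 5 were lower and none higher, with summed intensities of 7629 to 7917 in control and 5914 to 5973 with AMH. Most of each sum came from Zp2 (-0.004) and Zp3 (-0.002), which were not called. The 5 lower markers lay between -2.14 (Gdf9) and -1.01 (Sycp3). Of the 5 granulosa markers 2 were higher, with sums of 1708 to 2085 against 2902 to 4837. Red blood cell markers summed to 1240 to 1438 and to 88.2 to 114.6, and 1 of the 2 tested was lower. Of the other markers tested, the only call was 1 of 5 of macrophages and leukocytes, higher. Sums of theca and steroidogenic markers were 271.9 to 376.3 and 423.7 to 2265, and the endothelial sums overlapped (688.1 to 740.4 and 654.5 to 761.5). The part of these differences in any result here was not tested.

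Most of the measured prefoldin genes were lower with AMH. Of the 5 subunit genes, 3 fell and none rose, where 11.9% of all tested genes fell, and their median was -1.06. The gene of the subunit known as VBP1 had no probe set of its own symbol here. Pfdn5, which encodes an alpha-type subunit that also binds MYC, had intensities of 2301.7 and 1486.7 in control and 79.3 and 212.1 with AMH. The AMH arrays were far below both control arrays, although they differed from each other as well. It fell by 3.66 ± 0.37 on the log2 scale (12.7-fold, limma adjusted p = 0.000817). Without AMH replicate 1 it was -3.03, and without AMH replicate 2 it was -4.29.

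The beta-type subunit genes were spread from a 2-fold fall to no difference. Pfdn6 had 528.8 and 472.2 in control and 247.6 and 212.1 with AMH (-1.07 ± 0.17, 2.1-fold, adjusted p = 0.00463). Pfdn1 had 1094.0 and 862.8 against 372.3 and 566.0 (-1.05 ± 0.22, adjusted p = 0.0127). Both were clearly separated by group, though the call of Pfdn1 ended without control replicate 1 (adjusted p = 0.0705). Pfdn2 was lower on both AMH arrays at its brighter probe set, at 396.3 and 457.8 against 598.1 and 620.1. It missed the threshold (-0.50 ± 0.16, adjusted p = 0.0531). Its dimmer probe set had 72.1 and 71.5 in control and 87.1 and 54.2 with AMH, which overlapped (-0.045 ± 0.249). Pfdn4 had 811.9 and 528.4 in control and 557.8 and 756.7 with AMH, so its groups overlapped (-0.01 ± 0.23). Members of one complex thus differed among themselves on the same arrays.

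TRiC, which receives prefoldin's clients, had all 8 subunit genes tested. Of these 2 fell, 1 rose and 5 were not called, where 11.9% of all tested genes fell and 11.1% rose. Cct2 had 1607.7 and 1734.6 in control and 705.5 and 744.2 with AMH (-1.19 ± 0.14, 2.28-fold, adjusted p = 0.0015). Cct4 had 1711.4 and 1910.7 against 1107.9 and 1074.2 (-0.72 ± 0.14, adjusted p = 0.0101). In both genes the arrays of a group lay close together and the groups far apart, but the call of Cct4 was lost without either control array (adjusted p = 0.061 and 0.118).

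Cct5 rose at its brighter probe set, from 2321.3 and 2584.9 to 3753.1 and 3705.7 (0.60 ± 0.13, adjusted p = 0.017). Its other probe set fell, from 1158.6 and 1129.4 to 505.3 and 593.8 (-1.04 ± 0.15, adjusted p = 0.00338). The direction given for Cct5 therefore depends on the probe set. With hybridization control scaling the brighter one gave -0.03, where the median of all tested probe sets was -0.52. Cct6a gave 0.21 ± 0.15 at its brighter probe set, while its dimmer one rose by 0.79 ± 0.17 (adjusted p = 0.0151). Tcp1 (-0.15 ± 0.14), Cct3 (-0.35 ± 0.14), Cct7 (-0.19 ± 0.14) and Cct8 (-0.20 ± 0.16) were not called. Leaving Cct5 aside, the other subunits ranged from -1.19 to 0.21.

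**Figure D2:**
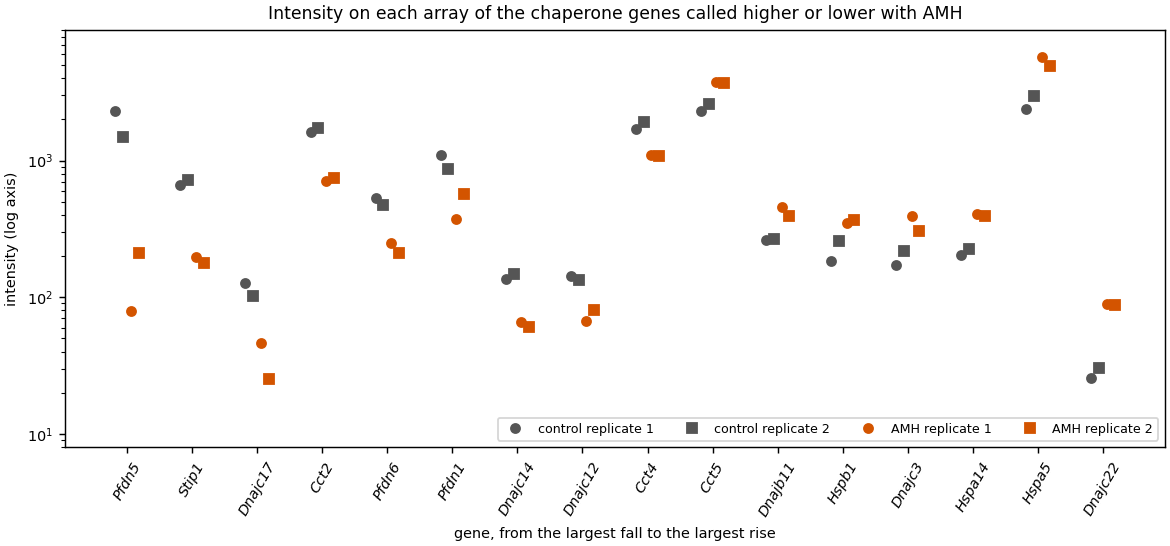
Intensity (log axis) on each of the 4 arrays for the 16 chaperone genes called higher or lower, ordered from the largest fall to the largest rise. Grey marks are control and orange marks AMH arrays, circles replicate 1 and squares replicate 2; the AMH arrays of Pfdn5 lie at 79.3 and 212.1, both below its control arrays at 2301.7 and 1486.7.

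The transcript of HOP, which holds HSP70 and HSP90 together, fell. Stip1 had 668.6 and 717.1 in control and 196.3 and 179.3 with AMH, with both AMH arrays close to each other and far below control. It fell by 1.80 ± 0.16 (3.48-fold, adjusted p = 0.000537), and it ran from -1.59 to -2.40 over the alternatives. Neither HSP90 gene was called at its brightest probe set, and limma gave neither an unadjusted p below 0.05. Hsp90ab1, the constitutive cytosolic HSP90, had 4223.2 and 4263.1 against 3836.4 and 3273.7 (-0.26 ± 0.14). Its dimmer probe set was called lower (-2.86 ± 0.15), as given below. Hsp90b1, the HSP90 of the endoplasmic reticulum, had 1833.1 and 1964.7 against 1471.6 and 1786.3 (-0.23 ± 0.15). At their brightest probe sets both genes were lower on both AMH arrays by less than the test could call. Without AMH replicate 1, Hsp90ab1 passed (adjusted p = 0.0287).

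Among the 11 tested HSP70 and HSP110 genes, 2 rose and none fell, where 11.1% of all tested genes rose and 11.9% fell. Hspa5, the HSP70 of the endoplasmic reticulum (BiP), had 2371.3 and 2983.3 in control and 5764.2 and 4892.4 with AMH (0.99 ± 0.16, 1.99-fold, adjusted p = 0.00534). Hspa14, a ribosome-associated HSP70, had 204.6 and 224.9 against 405.7 and 392.1 (0.85 ± 0.16, adjusted p = 0.00955). Both AMH arrays were well above control in each. Both calls ended without control replicate 1 (adjusted p = 0.052 for Hspa5 and 0.095 for Hspa14) and with hybridization control scaling (0.228 and 0.434).

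The stress-inducible Hspa1a was dim, at 64.1 and 76.5 in control and 120.1 and 80.8 with AMH (0.42 ± 0.24, not called). Hspa9, the HSP70 of mitochondria, gave 0.14 ± 0.17 and the germ cell gene Hspa2 0.10 ± 0.29. A dimmer probe set of Hspa9 was called lower, as given below. Hspa4, an HSP110-type exchange factor, had 155.3 and 95.6 against 100.4 and 39.6, with wide spread in both groups (-0.78 ± 0.36). It passed without AMH replicate 1 (-1.31, adjusted p = 0.00976) and with a replicate block (adjusted p = 0.0482). The remaining tested genes of the family lay between -0.32 (Hspa13) and 0.21 (Hspa12b). Hspa1l was below the filter, with intensities from 0.9 to 10.4.

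None of the 6 BAG genes was called, and 1 of them, Bag4, had an unadjusted p below 0.05 in limma (-0.53 ± 0.22, adjusted p = 0.116). Bag1 gave -0.39 ± 0.22, Bag2 -0.19 ± 0.22 and Bag6, which guides membrane proteins, -0.13 ± 0.18. Bag3, a stress-inducible factor of selective autophagy, had 108.8 and 136.1 against 140.6 and 84.9, which overlapped (-0.13 ± 0.25). Bag5 gave 0.23 ± 0.16. Without AMH replicate 1 Bag4 passed (-0.71, adjusted p = 0.0435) and Bag1 gave -0.09. Without AMH replicate 2 Bag1 passed (-0.69, adjusted p = 0.0132) and Bag4 gave -0.36. With hybridization control scaling 5 of the 6 were called lower. So were 7085 of all 18625 tested probe sets, whose median was then -0.52.

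Small heat shock proteins hold unfolded chains without ATP. Hspb1 (HSP27) was the only one of the 4 tested genes that was called, at 182.9 and 256.2 in control and 348.7 and 366.7 with AMH (0.68 ± 0.20, adjusted p = 0.0403). The AMH arrays lay above control, but 6 of 16 alternatives ended the call, among them no filter on dim probe sets (adjusted p = 0.0657) and leaving out control replicate 1 (0.46, adjusted p = 0.351). Hspb6 (0.31 ± 0.22), Hspb7 (-0.15 ± 0.26) and Hspb8 (0.06 ± 0.23), the partner of BAG3, were not called. Hspb2, Hspb3 and Hspb9 were below the filter, with all intensities from 3.6 to 29.6.

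J proteins are the largest family, with 39 genes, 36 tested, and 3 higher and 3 lower. Of all tested genes 11.1% were higher and 11.9% lower. The general HSP70 partners of the cytosol did not pass at the probe set that stands for the gene. Dnaja1 had 1259.1 and 1328.2 in control and 1859.3 and 1654.5 with AMH, separated by group, and narrowly missed the threshold (0.43 ± 0.14, adjusted p = 0.0604). Dnaja2 gave 0.25 ± 0.14 and Dnaja4 0.34 ± 0.19. Dnaja3, which works in mitochondria, gave -0.22 ± 0.19. None of the 4 class A genes was called by limma, and 1 had an unadjusted p below 0.05. Dnajb1, the stress-inducible HSP40, had 797.3 and 748.3 against 699.7 and 846.3, with no separation (-0.005 ± 0.157). Its dimmer probe set was called lower, as given below.

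Of the J proteins that rose, Dnajb11 and Dnajc3 are co-factors of Hspa5 in the endoplasmic reticulum. Dnajb11 had 263.1 and 268.9 in control and 457.4 and 392.2 with AMH (0.64 ± 0.16, adjusted p = 0.028). Dnajc3 had 172.1 and 216.5 against 393.2 and 306.0 (0.80 ± 0.20, adjusted p = 0.0249). Dnajc22 had 25.7 and 30.5 against 89.4 and 87.2 (1.24 ± 0.23, adjusted p = 0.00812). Its control level is near the filter level of 27.8, so its log2 difference varies with the added constant (1.62 for 1 and 0.73 for 64).

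Dnajc17, a nuclear J protein linked to splicing, fell from 126.8 and 102.5 to 46.3 and 25.3 (-1.36 ± 0.27, adjusted p = 0.0103). Dnajc14, a J protein of the endoplasmic reticulum membrane, fell from 135.1 and 146.9 to 66.4 and 60.5 (-0.98 ± 0.20, adjusted p = 0.0116). Its second probe set gave -0.43 ± 0.22 and was not called. Dnajc12, a partner of the aromatic amino acid hydroxylases, fell from 143.3 and 134.0 to 66.6 and 80.3 (-0.79 ± 0.20, adjusted p = 0.0267). In all 3 genes the groups were separate, and without control replicate 1 each call was lost (adjusted p from 0.0619 for Dnajc17 to 0.191 for Dnajc12). Calls of Dnajb11, Dnajc3 and Dnajc22 ended there too (0.188, 0.195 and 0.0518).

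Among the J proteins not called, Dnajc15 (0.63 ± 0.23) and Dnajc19 (-0.37 ± 0.23), both of the mitochondrial import motor, differed in sign. Dnajc2, which works with Hspa14 at the ribosome, gave 0.31 ± 0.16, Dnajc8, of splicing complexes, 0.41 ± 0.14 and Dnajc9, a histone chaperone, 0.20 ± 0.14. Dnajc7, which binds HSP70 and HSP90, gave -0.25 ± 0.17 and Dnajb6, which suppresses aggregation, -0.14 ± 0.17. The not called genes of class C ran from -0.56 (Dnajc4) to 0.63 and those of class B from -0.14 to 0.27 (Dnajb4). Dnajb5, Dnajb7 and Dnajb13 were below the filter, with intensities from 2.8 to 56.2.

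Grouped by where they work, a grouping made with the values in view, the 8 genes that act inside the endoplasmic reticulum held 3 of the 7 rises (Hspa5, Dnajb11 and Dnajc3), with a median of 0.40, where 11.1% of all tested genes rose. The other 5 of the 8 lay between -0.32 (Hspa13) and 0.58 (Dnajc1, adjusted p = 0.0544). The 4 J proteins of its membrane held no rise and 1 fall (Dnajc14), and Dnajb12 (0.13), Dnajb14 (0.21) and Dnajc18 (-0.35) were not called. Over all 12 genes 3 rose and 1 fell, with a median of 0.17. At their brightest probe sets the 8 mitochondrial genes had no call and a median of 0.12. There 1 was higher and 1 lower at an unadjusted p below 0.05 in limma. Dimmer probe sets of Hspa9 (-1.60) and Dnajc11 (-0.95) were called lower, as given below. The 55 tested genes of the cytosol, nucleus or other places had 4 rises and 8 falls and a median of -0.01. Of all tested genes 11.9% fell. With hybridization control scaling the rises of Hspa5, Dnajb11 and Dnajc3 were not called. Their values were 0.36, 0.03 and 0.20, where the median of all tested probe sets was -0.52.

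For 16 chaperone genes more than 1 probe set was tested, and probe sets of a gene often disagreed. Calls differed between probe sets in 10 of the 16 (62.5%, with 42.2% of the 2609 genes tested more than once). No test was made of these shares. In Hsp90ab1, Hsph1, Hspa9, Dnajb1, Dnajb12, Dnajc5, Dnajc11 and Cct5 a dimmer probe set was called lower while the brightest was not, as in 21.8% of all genes tested more than once. Brightness was ranked on all 4 arrays, so a probe set that falls with AMH is moved toward the dimmer ones, and nothing is read from the direction of these 8 cases.

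The largest gap was in Hsp90ab1, whose dimmer probe set had 1295.2 and 1192.2 in control and 155.0 and 159.0 with AMH. This probe set fell by 2.86 ± 0.15 (7.28-fold, adjusted p = 0.000219), where the brighter one gave -0.26. The dimmer probe set of Hsph1 fell from 309.3 and 299.9 to 70.3 and 89.3 (-1.75 ± 0.19, adjusted p = 0.00102). A second probe set of Hspa9 fell from 280.6 and 296.2 to 83.1 and 85.4 (-1.60 ± 0.18, adjusted p = 0.00113). The arrays of each group were close together in these 3 probe sets, so the gap is far larger than the spread between pools.

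The dimmer probe set of Dnajb1 fell from 423.8 and 370.7 to 163.7 and 164.4 (-1.20 ± 0.17, adjusted p = 0.00295). Those of Dnajb12 (-1.01 ± 0.25), Dnajc11 (-0.95 ± 0.16) and Dnajc5 (-0.84 ± 0.25) fell by less. For Dnajb12 the AMH arrays of that probe set, at 18.7 and 21.3, lie below the filter level, and in control its mean of 56.4 exceeded the 41.4 of the other probe set. The GAPDH and beta-actin end ratios given above differed between the groups on the same arrays. The position of each probe set in its transcript was not used here, and the part of the end ratios in these gaps was not tested. With each gene taken at its dimmest tested probe set, 7 genes were higher and 14 lower. Every dimmer probe set lay below the brightest in 68.8% of the chaperone genes tested more than once and in 66.8% of all such genes. The ranking by brightness favours this, so nothing is read from the 14.

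**Figure D3:**
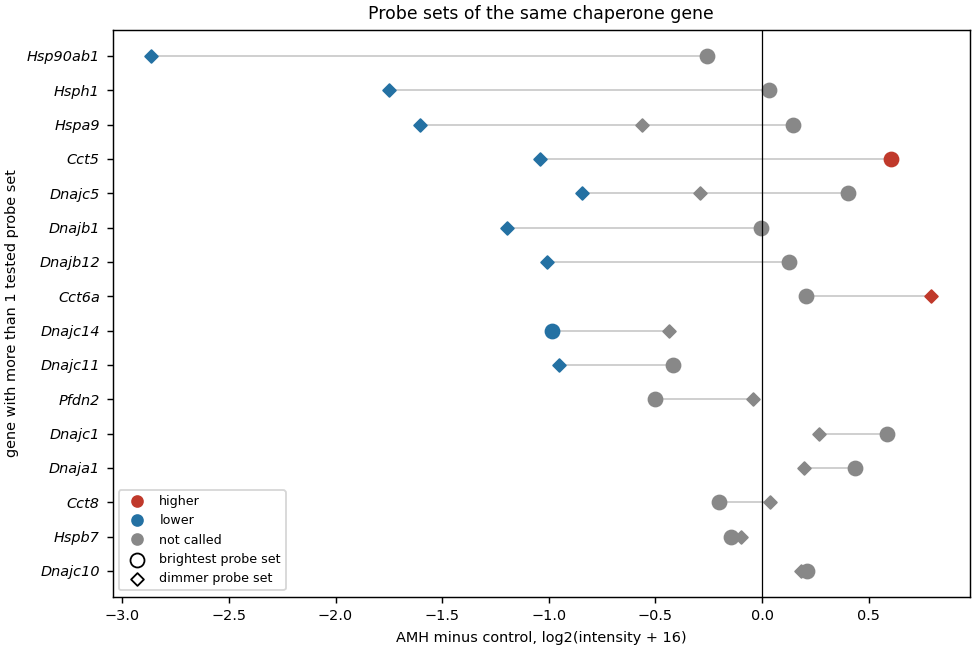
Log2 difference (AMH minus control, log2(intensity + 16)) of every tested probe set of the 16 chaperone genes with more than 1, joined by a line for each gene. Large circles are the brightest probe set, small diamonds dimmer ones, coloured by call; in Hsp90ab1 they lie at -0.26 and -2.86, and in Cct5 on opposite sides of 0.

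Genes that work with these chaperones were taken from a list of 50 co-chaperones, heat shock factors, prefoldin-like and tubulin folding factors, and mitochondrial partners and proteases. Of these 47 had a probe set and 45 were tested. With AMH 9 were higher and 10 lower, or 19 of 45, where 23.0% of all tested genes were called. The list was chosen with earlier results of these data known, so nothing is read from this share, and it was not tested. The median was 0.04. Among the rises, Cacybp, a factor of ubiquitin ligase complexes, went from 958.6 and 921.7 to 1753.4 and 1933.1 (0.96 ± 0.14, adjusted p = 0.00345), but its dimmer probe set fell (-1.50 ± 0.25, adjusted p = 0.0057). Ppid, an HSP90-binding prolyl isomerase, went from 786.4 and 932.1 to 1517.9 and 1759.8 (0.92 ± 0.16, adjusted p = 0.0063). Sugt1 (0.77 ± 0.16) and Chordc1 (0.74 ± 0.16), both HSP90 co-chaperones, Stub1, a ubiquitin ligase that binds HSP70 and HSP90 (0.64 ± 0.18), and Pdcl3 (0.60 ± 0.16) rose as well. So did Sgta (0.56 ± 0.17), whose second probe set fell (-1.07 ± 0.23), and the tubulin folding factors Tbce (0.71 ± 0.16) and Tbcd (0.64 ± 0.17). The call was lost or turned in 11 of 16 alternatives for Sgta, 9 for Stub1 and 7 for Pdcl3. Without control replicate 1 limma kept only the rise of Cacybp among the 9, and without control replicate 2 those of Cacybp and Ppid. With hybridization control scaling none of these 9 rises was called by limma, and none had an unadjusted p below 0.05.

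Among the falls were other HSP90 and HSP70 partners. Ppif, the prolyl isomerase of mitochondria, fell from 568.8 and 419.5 to 52.3 and 47.5 (-2.94 ± 0.20, 7.66-fold, adjusted p = 0.000268). Ppp5c, a phosphatase bound to HSP90, fell from 135.4 and 119.2 to 30.1 and 32.6 (-1.60 ± 0.22, adjusted p = 0.00248). Hspbp1, an exchange factor of HSP70, fell from 175.5 and 162.1 to 40.2 and 57.6 (-1.52 ± 0.22, adjusted p = 0.00327). In these 3 genes the groups were far apart and the calls held under every alternative in which they were tested.

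Fkbp4, which like Stip1 joins HSP90 to steroid receptors, fell from 469.2 and 461.7 to 249.6 and 188.9 (-1.05 ± 0.18, adjusted p = 0.00673). Cdc37, which brings kinases to HSP90, fell from 765.5 and 644.6 to 473.0 and 491.7 (-0.53 ± 0.16, adjusted p = 0.046), a call lost in 7 of 16 alternatives. Uxt, a prefoldin-like protein, had 326.4 and 327.7 against 47.6 and 154.4 (-1.72 ± 0.39, adjusted p = 0.0178). Its AMH arrays differed widely: leaving out replicate 2 gave -2.43, and leaving out replicate 1 gave -1.01. Grpel1, the exchange factor of mitochondrial HSP70 (-0.75 ± 0.16), Tbcb (-0.87 ± 0.16), Pdcl (-0.74 ± 0.19) and Fkbp8 (-0.72 ± 0.19) were also lower. These calls ended without control replicate 1, and without control replicate 2 for all but Tbcb. Ptges3 (0.14 ± 0.13), Ahsa1 (0.07 ± 0.15) and St13 (-0.02 ± 0.16), core partners of HSP90 and HSP70, were not called. Neither were the heat shock factor genes Hsf1 (-0.18 ± 0.26) and Hsf2 (0.29 ± 0.16), nor Trap1, the mitochondrial HSP90 (0.24 ± 0.16). Dimmer tested probe sets of Hsf2 had the opposite sign (-0.38 ± 0.20 and -0.67 ± 0.22) and were not called either.

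**Figure D4:**
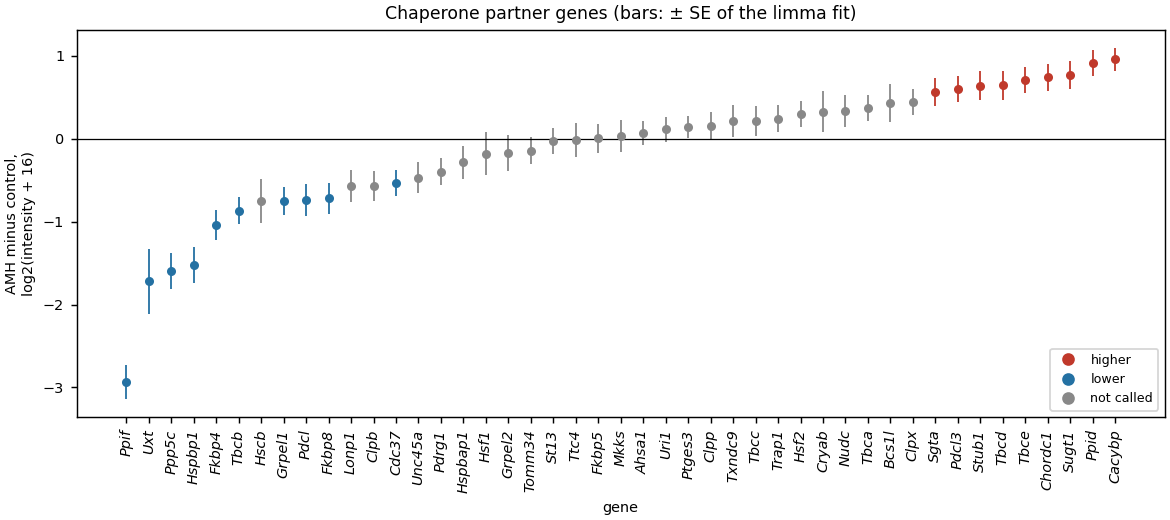
Log2 difference (AMH minus control, log2(intensity + 16)) of the 45 tested partner genes in order, with bars of ± 1 SE of the limma fit. Red is higher, blue lower and grey not called; values run from -2.94 for Ppif to 0.96 for Cacybp.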

How the data were processed

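The authors deposited 1 table of 31099 probe set intensities by 4 arrays, on a linear scale, from biotin-labelled RNA on 1-colour Affymetrix arrays, per the labels. How probes were summarised is not stated in the labels. The mean of each array without its lowest and highest 2 percent was 125, so intensities had been scaled per array. The table holds no detection calls, and the number of arrays limits the precision.

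Groups came from the sample titles. Values became log2(intensity + 16). Left out were 57 Affymetrix controls and, of the rest, the dimmest 40 percent (mean log2 under 5.45, or an intensity near 27.8). AMH was compared with control over the 18625 left, with limma 3.58.1 in R 4.3.3 (lmFit, eBayes with an intensity trend, two-sided, Benjamini-Hochberg). Residual degrees of freedom were 2 and prior ones 6.33, so p-values rest on the pooled spread; with 2 pools per group no permutation of arrays could reach a small p. On simulated data with independent noise, the fit called 77% of 100 probe sets changed by 2 on the log2 scale. It called 24% of 100 changed by 1, and 3 of its 104 calls were false. All others of the 18625 were left unchanged there, with no shift between groups. The real table had 1614 probe sets called higher and 2385 lower, and its end ratios differed by group. The simulated shares therefore do not carry over to it.

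Genes were named where the platform annotation gave 1 symbol (20832 probe sets; 436 had several and 9831 none listed). Probe sets with several symbols were not named, so Hsp90aa1 and Hspa8 are not analysed here. Genes given with values are all members of classes with 8 or fewer genes, in larger classes the called members and a fixed set, and members whose probe sets disagree; of the partner list, called genes and a fixed set. A few further genes (Dnajc1, Dnajc2, Dnajc4, Dnajc8, Dnajc9, Dnajc15, Dnajc19, Dnajb4, Dnajb6, Dnajb14, Dnajc18, Hspa12b, Hspa13, Ahsa1, St13 and Hsf2) were added after their values were seen. The members and lists were chosen with earlier results of these data known. The alternatives tried changed the constant added, the filter, the scale between arrays, the probe set of a gene, the variance model, a replicate block and the arrays kept.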

Additional observations from a re-analysis of the deposited data

How the results depend on the processing

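Of the 16 chaperone calls, 4 held under every alternative. Hybridization control scaling moved the counts to 1 higher and 32 lower among the chaperones and 0 higher and 20 lower among the partners. A second set of hybridization controls, chosen after seeing the data, gave 1 and 19, and 0 higher partners (by limma, 0 also at an unadjusted p below 0.05). Without an intensity trend 4 chaperones and 5 partners were higher, and with the mean over probe sets 4 partners were higher. At the dimmest tested probe set 14 chaperones were lower, a count that the ranking by brightness favours. Without the endoplasmic reticulum genes, also chosen after seeing the data, 4 chaperones were higher. Leaving out 1 array gave 0 to 10 chaperones higher and 4 to 13 lower, and 1 to 10 partners higher and 5 to 12 lower. With the replicate number as a block, 7 chaperones were higher and 10 lower. Deviations of same-numbered arrays correlated at r = -0.000816 across probe sets. With 2 arrays per group this value cannot settle whether same-numbered pools shared a litter or day, and the labels do not say. Among the genes given with values, and counting a turn where either value was called, the sign turned at the dimmest probe set for Cct5 (-1.04), Dnajb12 (-1.01), Hsph1 (-1.75), Cacybp (-1.50), Sgta (-1.07) and Tbcd (-0.045). With the mean over probe sets it turned for Cct5 (-0.22), Hsph1 (-0.86), Cacybp (-0.27) and Sgta (-0.25). With hybridization control scaling it turned for Cct5 (-0.032), Pdcl3 (-0.026) and Sgta (-0.035), where the median of all tested probe sets was -0.52. A further 59 changes of sign had no call on either side. The cause of these changes was not tested.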
